A study of Mus musculus with 10 samples.

Results

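The neurotrophin genes Bdnf and Ntf3, the Trk receptor genes Ntrk2 and Ntrk3, the shared neurotrophin receptor gene Ngfr and the sortilin family genes Sort1, Sorcs1, Sorcs2 and Sorcs3 were followed in the nucleus accumbens (NAc) of B6 and D2 mice. These 9 genes were taken by name as a ligand, receptor and sorting receptor system, and each matched 1 of the 29883 gene rows in the count table. The NAc belongs to the ventral striatum and was dissected from 5 male C57BL/6J (B6) and 5 male DBA/2J (D2) mice, and 1 poly-A RNA library was sequenced per mouse. The mice came from the Jackson Laboratory, were group-housed and ethanol-naive, and were 9 weeks of age. Both are inbred strains, and the paper describes no transgene. Mice are numbered by the replicate numbers of their labels.

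Neurotrophins are secreted as precursors, which bind the p75 receptor (encoded by Ngfr) together with a sortilin family protein, and are cut to mature ligands, which bind Trk receptor kinases. BDNF binds TrkB (Ntrk2), and NT-3 binds TrkC (Ntrk3). Neurons of the striatum make little Bdnf mRNA of their own, and most BDNF protein there is carried in along the axons of cortical neurons. The sortilin family also sorts other proteins between the cell surface, endosomes and the Golgi apparatus.

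Each library held 96977262 to 116776714 reads counted on genes. Both strains were aligned to the B6 genome, so reads with D2 alleles may be lost more easily. Values below are normalized read counts after TMM scaling to a common library size, unless another scale is named. All 10 markers of striatal projection neurons were detected in every library, with summed counts of 637870 to 795555 in B6 and 524633 to 630694 in D2, and 7 of the 10 were lower in D2. Libraries differed in markers of several cell types. The sum of 8 markers of cortical projection neurons was 106092 and 107798 in B6 mice 3 and 5, 15479 to 24170 in the other B6 mice and 31643 to 71019 in D2. The same mice had the highest sums of 6 oligodendrocyte markers, at 669852 and 666460 beside 463595 to 556049 in the other B6 mice and 350121 to 511323 in D2. They had the lowest sums of 5 cholinergic neuron markers, at 5914 and 6022, and the lowest striatal sums of the B6 mice. B6 mice 3 and 5 were also the most alike pair of libraries of a strain (mean chi-square 4.89 per gene, where sampling alone would give about 1 and the next pair gave 17.5), and were counted as separate mice. Results for the members are given with and without them where they change. In bulk tissue, fewer cells of a type and less RNA per cell cannot be told apart.

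Sorcs3 was the member that differed between the strains. It encodes a sortilin family receptor found at synapses. It had 7765, 7739, 7177, 7085 and 7295 counts in B6 mice 1 to 5, and 6131, 6615, 6329, 6872 and 6468 counts in D2 mice 1 to 5. Every D2 mouse was below every B6 mouse. Means were 7412 ± 319 for B6 and 6483 ± 281 for D2 (SD, n = 5 each), a log2 fold change (D2 against B6) of -0.19 (SE 0.040, adjusted p = 0.0042, edgeR quasi-likelihood test). The two-sided exact permutation test gave p = 0.0079, the smallest that 5 against 5 mice allow. Of the 9 members, 1 passed an adjusted p of 0.05, or 11.1%, beside 18.3% of all genes tested, and 1 of the 9 was lower in D2 beside 9.83% of all genes. Sorcs3 was likewise the 1 member of 9 whose strains did not overlap, beside 16% of all genes. The share of members called was therefore no higher than the background. All 9 log2 fold changes were negative, with a median of -0.13, beside a median of 0.0036 over all genes tested.

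The Sorcs3 call did not depend on B6 mice 3 and 5. Without them the log2 fold change was -0.22 (SE 0.045, adjusted p = 0.0044), and with the level of Slc17a7, a marker of cortical projection neurons, as a covariate it was -0.18 (SE 0.039, adjusted p = 0.0029). Striatal projection neuron markers were lower in D2 as well (7 of 10, median log2 fold change -0.32), as were oligodendrocyte markers (4 of 6, median -0.35). Without B6 mice 3 and 5, 8 of 10 striatal markers were called lower (median -0.38) and 0 of 6 oligodendrocyte markers were called (median -0.25). The part of either in the Sorcs3 difference was not tested. Sorcs3 lies on chromosome 19 (GRCm39 chr19:48194464-48793944, plus strand). Its single protein-coding neighbour within 250 kb, Cfap58, was not called.

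The promoter window of Sorcs3 is shown because it is the member called between the strains. The window (RefSeq, GRCm38.p6, chr19:48205775-48206074, plus strand) runs from 250 bases before to 50 bases after the annotated start. None of 3 motifs searched on both strands (TGACG, the core of the CREB element, the E-box form CACGTG, and the other E-box form searched, CATATG) is in these letters, which are from the reference genome and not from D2.

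Sorcs3 promoter window: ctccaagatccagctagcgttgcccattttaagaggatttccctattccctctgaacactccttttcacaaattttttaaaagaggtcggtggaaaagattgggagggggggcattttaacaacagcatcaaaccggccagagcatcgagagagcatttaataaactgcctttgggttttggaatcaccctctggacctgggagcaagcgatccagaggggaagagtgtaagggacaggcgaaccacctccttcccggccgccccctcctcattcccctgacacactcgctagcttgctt

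**Figure D1:**
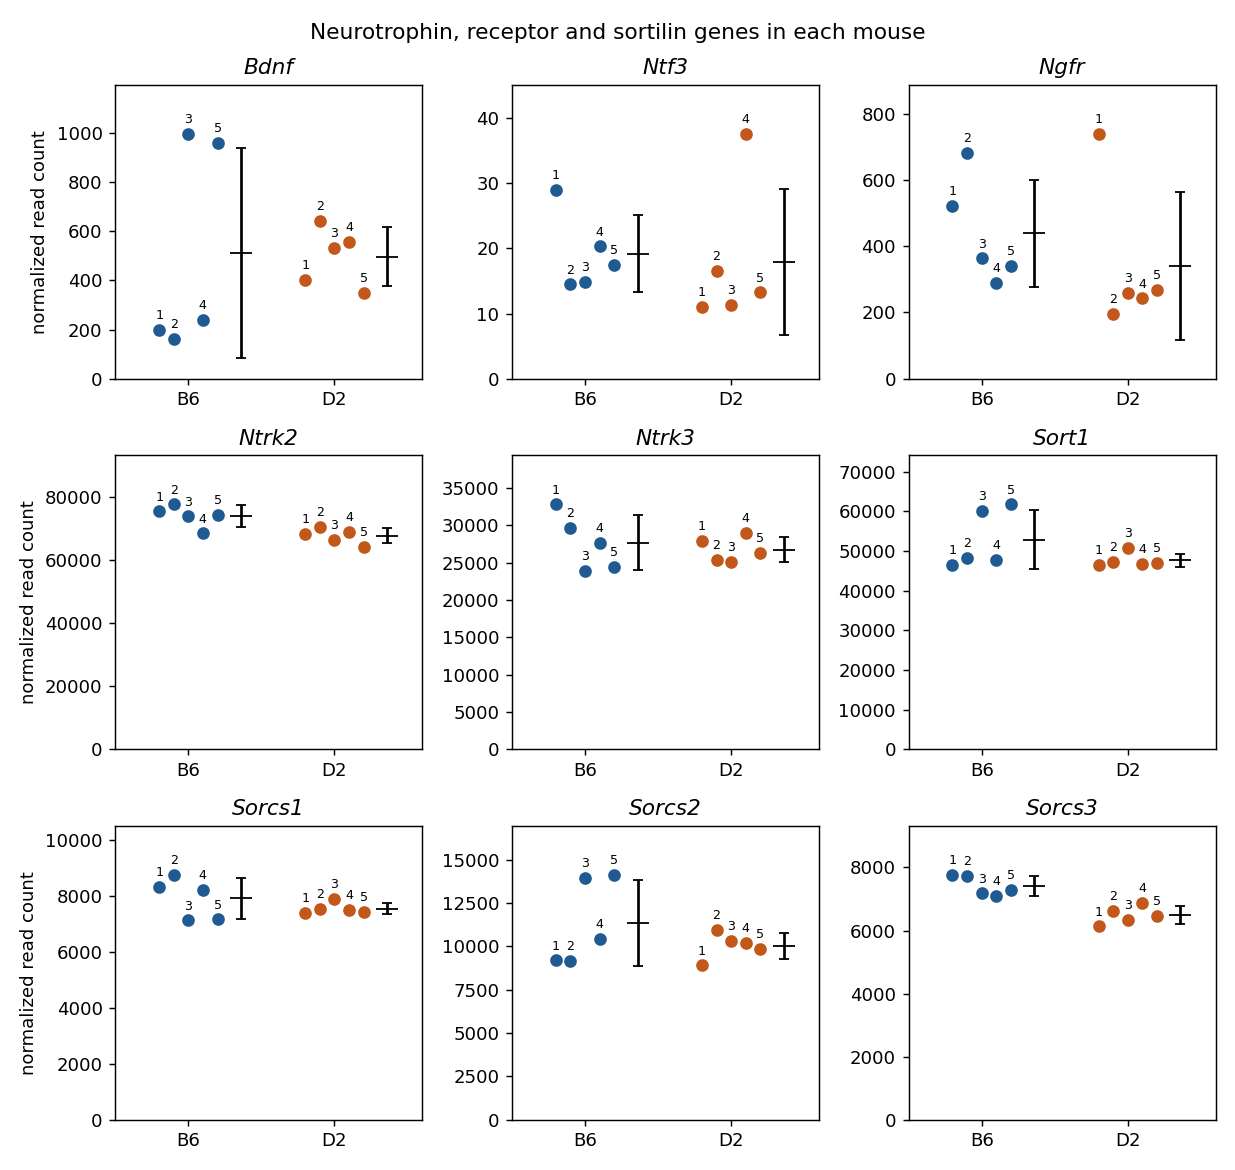
Normalized read counts (y axis, from 0) of the 9 genes in each of 5 B6 and 5 D2 mice, numbered by replicate, with the mean and SD as bars. The D2 points of Sorcs3 (6131 to 6872) lie below all B6 points (7085 to 7765), and B6 mice 3 and 5 stand above all other mice for Bdnf, Sort1 and Sorcs2.

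Bdnf, which encodes brain-derived neurotrophic factor, had nearly equal means in both strains and a far wider range in B6. It had 198.8, 163.4, 996, 239.5 and 957.7 counts in B6 mice 1 to 5, and 401.8, 641.7, 531.9, 556.5 and 349.8 counts in D2 mice 1 to 5. B6 mice 1, 2 and 4 were below every D2 mouse, and B6 mice 3 and 5 were above every D2 mouse. Means were 511 ± 426 for B6 and 496 ± 119 for D2 (SD, n = 5 each), with coefficients of variation of 83.4% and 23.9%. The log2 fold change was -0.04 (SE 0.47, adjusted p = 0.97), an error too wide to show whether the strains are alike. On the mean of log2 counts the D2 mice were higher by 0.37 (two-sided exact permutation test, p = 0.56).

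The result for Bdnf turned on B6 mice 3 and 5. Without them, Bdnf was higher in D2 by 1.31 on the log2 scale (SE 0.20, adjusted p = 0.00046). These mice were left out after seeing the data, and the B6 mice that remained all lay below every D2 mouse. The p-value of this fit is therefore not that of a planned test. In the same fit of 8 mice, Slc17a7 was higher in D2 by 2.07 (SE 0.35, adjusted p = 0.0011). With Slc17a7 as a covariate in all 10 mice, the log2 fold change of Bdnf was -0.11 (SE 0.11, adjusted p = 0.53). With cholinergic markers as a covariate in all 10 mice it was 1.04 (SE 0.13, adjusted p = 3.2e-05). The Bdnf difference thus took either sign. It passed the test in that fit and in the fit of 8 mice, where Slc17a7 passed it as well.

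Slc17a7, which encodes the vesicular glutamate transporter VGLUT1, had 6802, 6173, 83613, 14039 and 85477 counts in B6 mice 1 to 5. It had 18845, 48411, 53249, 41471 and 27399 counts in D2 mice 1 to 5. The highest mouse was 13.8 times the lowest in B6 and 2.83 times the lowest in D2. Bdnf followed Slc17a7 from mouse to mouse. With each strain centred on its own mean of log2 counts, Pearson's r over the 10 mice was 0.975 (exact permutation test of pairings within strains, p = 0.0024) and Spearman's rho was 0.915 (exact permutation test, p = 0.0088). With the mean of the other 7 cortex markers in place of Slc17a7, r was 0.982 (exact permutation test, p = 0.0020), and adjusted over these 2 tests both values of p were 0.0024 (exact permutation tests, Benjamini-Hochberg). Leaving out the pair of mice farthest from the median of Slc17a7 (B6 mice 1 and 2) gave r = 0.953 (exact permutation test, p = 0.028), and leaving out B6 mice 3 and 5 instead gave r = 0.829 (exact permutation test, p = 0.033) and rho = 0.786 (exact permutation test, p = 0.044). Both genes were read from the same libraries and scaled by the same factor, and 5 mice per strain are too few for a correlation within one strain.

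A doubling of Slc17a7 went with a 1.57-fold higher Bdnf count. The slope was 0.65 (log2 Bdnf per log2 Slc17a7) over both strains, 0.67 within B6 and 0.46 within D2. The SD of log2 Bdnf within strains was 0.93, and 0.22 remained around the common slope (7 residual degrees of freedom). The B6 spread of Bdnf, with an SD of 1.27 on the log2 scale against 0.36 in D2, stood beside an SD of log2 Slc17a7 of 1.88 in B6 and 0.63 in D2.

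Among the 15387 genes whose mean reached 100 counts, 10 were named by their correlation with Bdnf over the 10 mice, centred by strain. These were Nr4a2 (r = 0.993), an activity-induced nuclear receptor, Itga4 (r = 0.991), an integrin, Fmnl1 (r = 0.991), Mfsd4a (r = 0.990), Adcyap1 (r = 0.990), which encodes the neuropeptide PACAP, Numb (r = 0.990), Ptpn3 (r = 0.989), Smap1 (r = 0.988), Rtn4r (r = 0.988), which encodes the Nogo receptor, and Tmprss7 (r = 0.988). The same 10 had r between 0.876 and 0.947 without B6 mice 3 and 5. Slc17a7 ranked 80 among the genes compared. A correlation with Bdnf above 0.9 was common, at 770 genes or 5.00% of those compared, and the points share the same libraries.

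**Figure D2:**
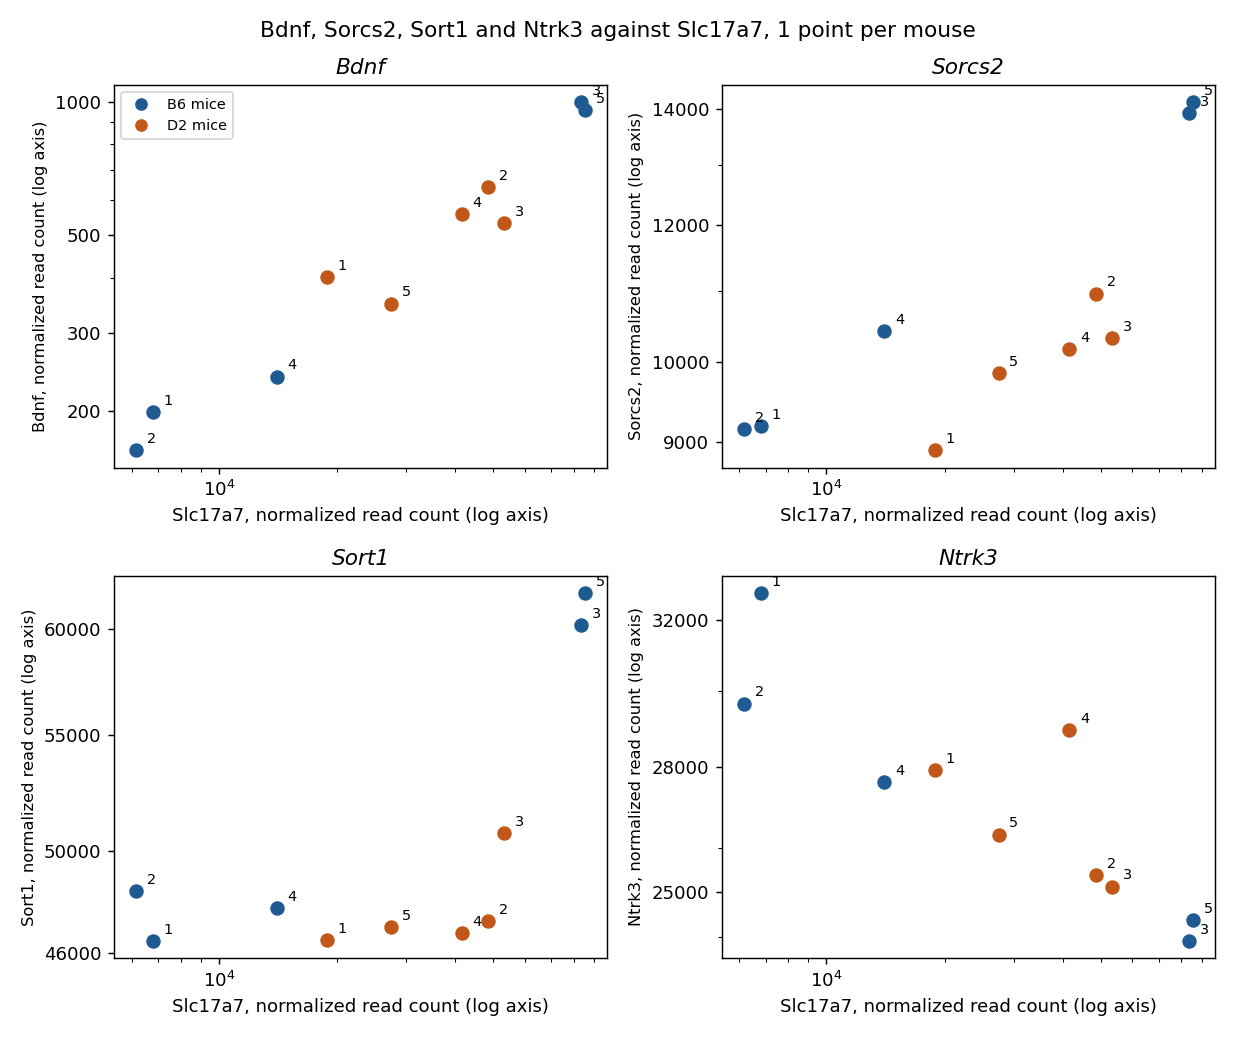
Normalized read counts of Bdnf, Sorcs2, Sort1 and Ntrk3 (y axes, log) against those of Slc17a7 (x axis, log), 1 numbered point per mouse. B6 mice 3 and 5 lie at the right end of each panel (83613 and 85477 Slc17a7 counts), with the highest Bdnf, Sorcs2 and Sort1 and the lowest Ntrk3 counts.

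Bdnf lies on chromosome 2 (GRCm39 chr2:109505045-109557475, plus strand) and has several promoters, whose transcripts the gene count adds together. RefSeq gave 7 promoter windows of 300 bases for it. The third (GRCm38.p6, chr2:109692186-109692485, plus strand) is shown because it is the 1 of 13 windows of the members that holds TGACG, here read on the opposite strand as CGTCA. The motif is in 20.8% of 32851 windows of this length over all genes. CATATG, in 3.91% of all windows, is also there, and both matches are in capitals.

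Bdnf promoter window: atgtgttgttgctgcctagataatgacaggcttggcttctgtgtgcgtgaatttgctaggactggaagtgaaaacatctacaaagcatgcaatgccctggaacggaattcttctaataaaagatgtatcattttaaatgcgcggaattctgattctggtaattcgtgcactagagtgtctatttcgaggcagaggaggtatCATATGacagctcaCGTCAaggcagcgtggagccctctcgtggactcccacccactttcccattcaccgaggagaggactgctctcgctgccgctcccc

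CATATG was found in 2 Bdnf windows, and CACGTG, in 7.15% of all windows, in 1 window of Ntf3. A match describes the letters and not a bound site. Windows were available for 6 of the 9 members.

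Ntf3, which encodes neurotrophin-3, was close to the limit of what could be counted. It had 28.9, 14.5, 14.9, 20.3 and 17.5 normalized counts in B6 mice 1 to 5, and 11.01, 16.6, 11.3, 37.6 and 13.3 in D2 mice 1 to 5. The strains overlapped, and D2 mouse 4 was higher than every other mouse. The log2 fold change was -0.10 (SE 0.37, adjusted p = 0.90), and with 12 to 40 raw reads per library a change of this size was not detectable.

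Ntrk2, the TrkB gene, was slightly lower in D2 and lay at the threshold. It had 75304, 77529, 73714, 68335 and 74221 counts in B6 mice 1 to 5, and 68298, 70486, 66206, 68783 and 64173 in D2 mice 1 to 5. The strains overlapped through B6 mouse 4, which was below D2 mice 2 and 4. Means were 73821 ± 3399 for B6 and 67589 ± 2444 for D2 (SD, n = 5 each), a log2 fold change of -0.13 (SE 0.042, adjusted p = 0.053). With DESeq2, which called 2 of the 9 members (Ntrk2 and Sorcs3) and 20.7% of all genes, the adjusted p was 0.018. Without B6 mouse 4 the edgeR log2 fold change was -0.15 (adjusted p = 0.018), and without B6 mice 3 and 5 it was -0.13 (adjusted p = 0.079). Ntrk2 did not follow Slc17a7 (r = -0.10 over 10 mice). Its count adds the kinase and the truncated forms of TrkB, of which the latter is abundant in astrocytes. Summed astrocyte markers spanned 110610 to 118093 in B6 and 105889 to 117184 in D2. Of the 6 astrocyte markers, 1 was called higher and 2 were called lower in D2, and their part in the Ntrk2 values was not tested.

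Ntrk3, the TrkC gene, showed no called difference. It had 32785, 29656, 23906, 27612 and 24358 counts in B6 mice 1 to 5, and 27925, 25382, 25115, 28941 and 26329 in D2 mice 1 to 5. The B6 mice enclosed the whole D2 range, and the lowest were B6 mice 3 and 5. The log2 fold change was -0.05 (SE 0.081, adjusted p = 0.76). Ntrk3 moved against Slc17a7 (r = -0.88 over 10 mice, and -0.59 without B6 mice 3 and 5). Without those mice the log2 fold change was -0.17 (SE 0.060, adjusted p = 0.073).

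Ngfr, the p75 receptor gene, varied widely in both strains. It had 521, 683, 363, 290 and 340 counts in B6 mice 1 to 5, and 739, 196, 258, 243 and 267 in D2 mice 1 to 5. D2 mouse 1 was the highest of all mice, and the other D2 mice were below every B6 mouse. The log2 fold change was -0.37 (SE 0.35, adjusted p = 0.56). Without D2 mouse 1 it was -0.87 (SE 0.23, adjusted p = 0.024), so that this mouse decided the call. For Ngfr and Slc17a7, r was -0.57 over 10 mice and -0.89 without B6 mice 3 and 5. The slopes were -0.17 within B6 and -1.01 within D2.

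Lhx8, a marker of cholinergic neurons, moved in part with Ngfr. Ngfr is known from cholinergic neurons of the basal forebrain, next to the NAc, and Lhx8 encodes a transcription factor of such neurons. Lhx8 had 2108, 2120, 409, 1230 and 482 counts in B6 mice 1 to 5, and 2731, 1211, 1444, 1685 and 1769 in D2 mice 1 to 5. The mouse highest in Lhx8, D2 mouse 1, was also highest in Ngfr, and B6 mice 1 and 2 came next in both. The other mice did not keep this order. B6 mice 3 and 5, lowest in Lhx8, had 363 and 340 counts of Ngfr, above D2 mice 2 to 5. The sum of 5 cholinergic markers was 5914 to 13708 in B6 and 9859 to 15594 in D2, and none of the 5 was at 0 in any library. By this sum D2 mouse 5 (13306) was close to B6 mouse 2 (13375), with 267 and 683 counts of Ngfr. Of the 5 markers only Lhx8 is given per mouse. With the 5 cholinergic markers as a covariate the log2 fold change of Ngfr was -0.70 (adjusted p = 0.11). Their part in the Ngfr values was not tested further.

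**Figure D3:**
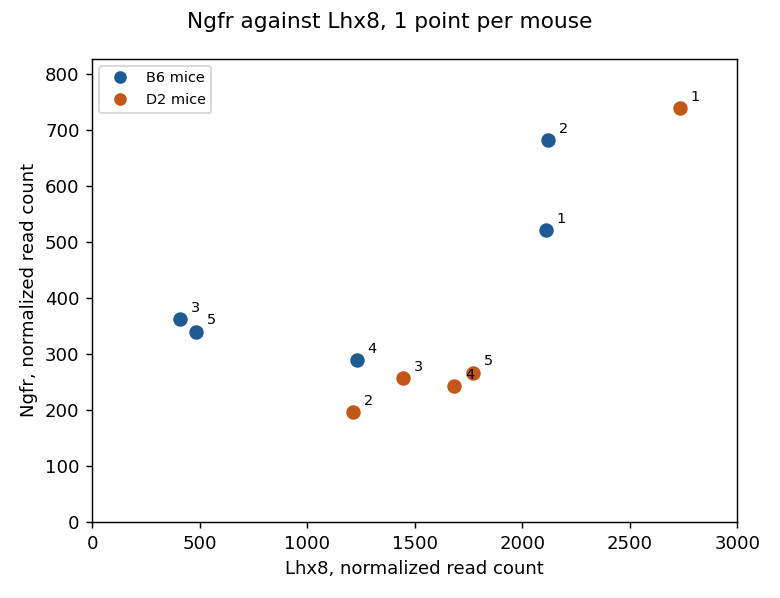
Normalized read counts of Ngfr (y axis) against those of Lhx8 (x axis), 1 numbered point per mouse, both axes from 0. D2 mouse 1 is highest in Lhx8 (2731) and Ngfr (739). B6 mice 3 and 5 are lowest in Lhx8 (409 and 482) but lie above D2 mice 2 to 5 in Ngfr (363 and 340).

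Sort1 encodes sortilin, which pairs with p75 to bind precursor neurotrophins. It had 46443, 48365, 60165, 47708 and 61772 counts in B6 mice 1 to 5, and 46462, 47207, 50721, 46737 and 46971 in D2 mice 1 to 5. B6 mice 3 and 5 were above all others, and the other B6 mice, at 46443 to 48365, overlapped the D2 mice. Means were 52891 ± 7428 for B6 and 47620 ± 1756 for D2 (SD, n = 5 each), a log2 fold change of -0.15 (SE 0.079, adjusted p = 0.23). Sort1 was also used as a reference gene for qRT-PCR in the study. Its other reference genes were Ublcp1, lower in D2 by a log2 fold change of -0.48 (SE 0.044, adjusted p = 5.4e-06), and Ppp2r2a, lower by a log2 fold change of -0.33 (SE 0.032, adjusted p = 8.6e-06). The paper states that Ublcp1 was dropped for the amygdala because it differed between the strains there.

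Sorcs2 encodes a sortilin family receptor that binds precursor BDNF together with p75. It had 9184, 9152, 13929, 10427 and 14123 counts in B6 mice 1 to 5, and 8900, 10955, 10329, 10179 and 9856 in D2 mice 1 to 5. As for Sort1, B6 mice 3 and 5 were above all others, and the rest overlapped. The log2 fold change was -0.18 (SE 0.12, adjusted p = 0.38). Sorcs2 followed Slc17a7 more closely than any other member did (r = 0.99 over 10 mice, and 0.94 without B6 mice 3 and 5), with slopes of 0.17 within B6 and 0.16 within D2. For Sort1, r was 0.94 over 10 mice and 0.48 without them, with slopes of 0.10 and 0.05. Oligodendrocyte marker sums were likewise highest in B6 mice 3 and 5, and their part in the values of Sort1, Sorcs2 and Ntrk3 was not tested.

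Sorcs1 encodes a sortilin family receptor that sorts synaptic adhesion proteins. It had 8335, 8763, 7135, 8227 and 7170 counts in B6 mice 1 to 5, and 7398, 7539, 7888, 7500 and 7434 in D2 mice 1 to 5. Unlike Sort1 and Sorcs2, it had B6 mice 3 and 5 below all D2 mice and the other B6 mice above them. The log2 fold change was -0.07 (SE 0.056, adjusted p = 0.47). Without B6 mice 3 and 5 it was -0.16 (SE 0.036, adjusted p = 0.0069), a fit added after seeing the data that leaves only the B6 mice above all D2 mice. With Slc17a7 as a covariate in all 10 mice it was -0.02 (SE 0.038, adjusted p = 0.76). With cholinergic markers as a covariate it was -0.13 (SE 0.039, adjusted p = 0.032). For Sorcs1 and Slc17a7, r was -0.84 over 10 mice and 0.15 without B6 mice 3 and 5.

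How many members differed between the strains depended on the cortex marker and on B6 mice 3 and 5. With Slc17a7 as a covariate, 4 of the 9 members were lower in D2, beside 26.2% of all genes called in that fit. These were Sorcs3, Ntrk2 (log2 fold change -0.12, SE 0.039, adjusted p = 0.028), Sort1 (-0.21, SE 0.035, adjusted p = 0.00035) and Sorcs2 (-0.28, SE 0.030, adjusted p = 6.2e-06). Without B6 mice 3 and 5, 3 of the 9 were called, beside 19.2% of all genes, and these were Sorcs3 and Sorcs1, lower in D2, and Bdnf, higher in D2. In that fit the log2 fold change was 0.00 (SE 0.037, adjusted p = 0.98) for Sort1 and 0.07 (SE 0.063, adjusted p = 0.55) for Sorcs2. Sort1 and Sorcs2 were thus called in one of these fits and not in the other, and Sorcs3 was called in both. With the other cortex markers as a covariate the same 4 members were called as with Slc17a7, beside 26% of all genes. With cholinergic markers as a covariate 5 of the 9 were called, beside 22.6% of all genes, and these were Ntrk2, Ntrk3, Sorcs1 and Sorcs3, lower in D2, and Bdnf, higher in D2. The covariate fit assumes 1 slope for both strains, and leaving out B6 mice 3 and 5 leaves 3 B6 mice, all with less Slc17a7 than any D2 mouse. Leaving them out was chosen after seeing the data. For Bdnf and Sorcs1 it leaves only B6 mice on 1 side of the D2 range, so these calls are not those of a planned test.

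**Figure D4:**
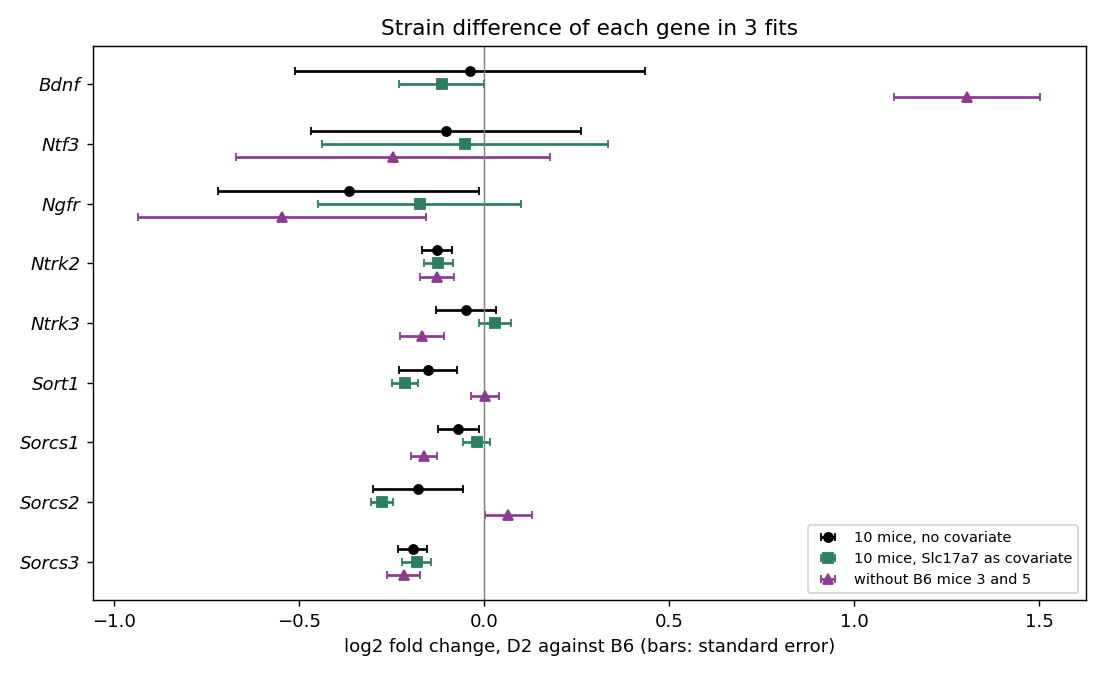
Log2 fold change, D2 against B6 (x axis, bars: standard error), of the 9 genes in 3 fits: all 10 mice (circles), all 10 mice with Slc17a7 as covariate (squares) and without B6 mice 3 and 5 (triangles). Sorcs3 lies between -0.22 and -0.18 in each, whereas Bdnf moves from -0.04 to 1.31 when B6 mice 3 and 5 are left out.

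Levels of the members were compared per length of exon, as RPKM, which here is the normalized count scaled to library size and to the summed length of all annotated exons of a gene in kilobases. Sort1 was highest, at 59.7 ± 8.39 for B6 and 53.8 ± 1.98 for D2 (SD, n = 5 each). Ntrk2 followed at 22.9 ± 1.05 and 20.9 ± 0.757, and both genes stood apart from their neighbours in each strain. Sorcs2 (11.7 and 10.3), Sorcs3 (9.62 and 8.41), Sorcs1 (8.53 and 8.13) and Ntrk3 (8.18 and 7.91, means of B6 and D2) came next. Ranges of Sorcs3, Sorcs1 and Ntrk3 overlapped from each gene to the next in both strains, and those of Sorcs2 and Sorcs3 overlapped in B6. The receptor Ngfr (1.18 and 0.915) and the ligands Bdnf (0.624 and 0.606) and Ntf3 (0.103 and 0.0958) were lowest, and Ngfr and Bdnf overlapped. The ligands were therefore far below Ntrk2, Ntrk3 and the 4 sortilin family genes on this scale in every mouse. The order rests in part on the length used. With the length of the canonical transcript Ntrk2 (75.6 and 69.2) came before Sort1 (70.8 and 63.7) with overlapping ranges, Sorcs1 (19.4 and 18.5) came before Sorcs2 (18.2 and 16.0), and Ntrk3 (13.01 and 12.6) came before Sorcs3 (12.2 and 10.7).

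**Figure D5:**
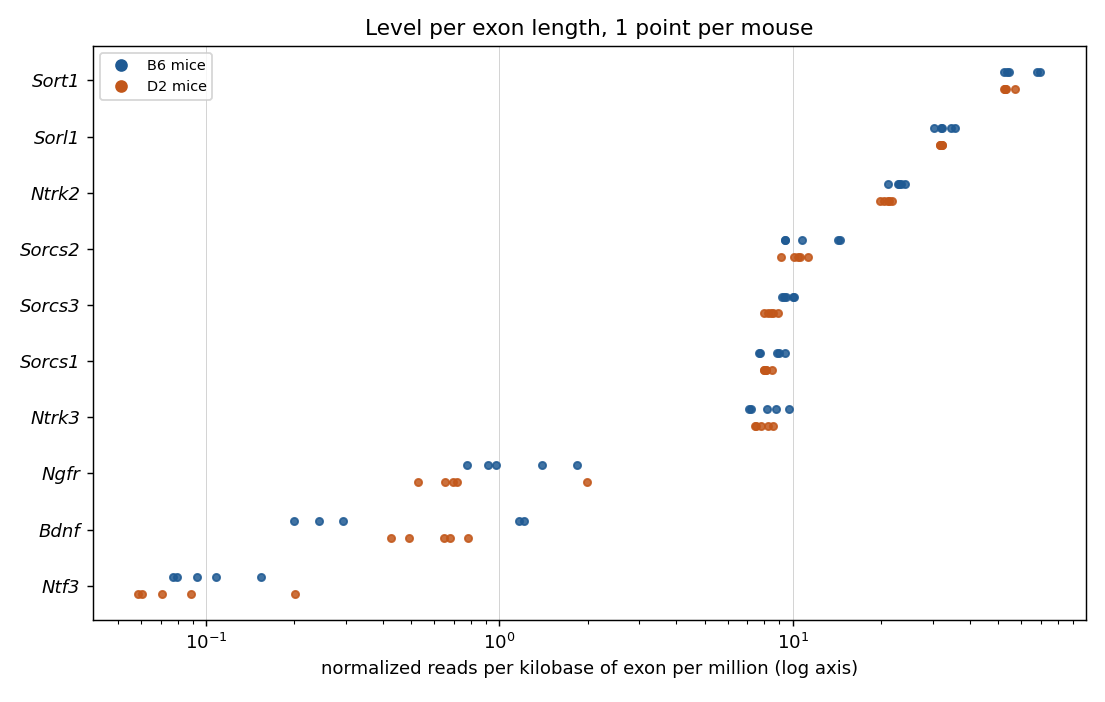
RPKM from normalized counts (x axis, log) of the 9 genes and of Sorl1, 1 point per mouse, B6 above D2. Sort1 lies above 52 in every mouse, and Bdnf spans 0.199 to 1.22 in B6 and 0.427 to 0.783 in D2.

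Other genes of these families were also examined. Ntf5, which encodes neurotrophin-4, had at most 7 raw reads in a library and none in 3 of the 10. The sortilin relative Sorl1 was not called, with a log2 fold change of -0.04 (SE 0.043, adjusted p = 0.59).

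Genes of the 8 pathway lists were called about as often as all genes with all 10 mice and no covariate. All genes here include rows with few reads, so the shares are not matched for read count. Of 140 tested genes in the 8 pathway lists, 9 were higher and 18 were lower in D2, which is 19.3% beside 18.3% of all genes. The share was 22.9% beside 19.2% without B6 mice 3 and 5, and with Slc17a7 as a covariate it was 35.0% beside 26.2%. These shares include the study's reference genes Ublcp1 and Ppp2r2a, which were called and lower in D2 in each of these fits. For ligand processing, 2 of 14 were higher and 3 were lower, and without B6 mice 3 and 5 there were 7 higher and 2 lower. Plg, the plasminogen gene whose product cuts precursor BDNF, rose by 2.26 on the log2 scale (SE 0.36, adjusted p = 0.00061), from 7.24 ± 4.29 to 34.8 ± 8.09 counts (SD, n = 5). Cpe, a carboxypeptidase that takes part in sorting precursor BDNF, was lower in D2 (log2 fold change -0.23, adjusted p = 0.0016).

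Of 43 genes of Trk signalling, 3 were higher and 4 were lower, and without B6 mice 3 and 5 there were 2 higher and 2 lower. The adaptor Gab2 was higher (0.30, adjusted p = 0.00049), and the phosphatase Ptpn11 (-0.16, adjusted p = 0.0050) and the adaptor Shc3 (-0.20, adjusted p = 0.016) were lower. Shc3 stood at -0.14 (adjusted p = 0.071) without B6 mice 3 and 5. Of 23 genes of p75 signalling, 2 were higher and 3 were lower. In p75 signalling there were 6 higher and 3 lower without B6 mice 3 and 5, and with Slc17a7 as a covariate 4 higher and 7 lower. Both Psenen (-0.75, adjusted p = 1.2e-07) and Psen2 (0.45, adjusted p = 9.0e-05) encode parts of gamma-secretase, which cuts p75 within the membrane, and they moved in opposite directions. Bex1, whose product binds p75, was lower (-0.36, adjusted p = 0.00021).

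Of 19 genes of sortilin cargo and trafficking, 1 was higher and 2 were lower. The sortilin ligand progranulin (Grn, -0.16, adjusted p = 0.018) was lower and lipoprotein lipase (Lpl, 0.26, adjusted p = 0.026) was higher. The kinase gene Prkcz (-0.14, adjusted p = 0.047) was lower. With each of the 10 mice left out in turn, the call of Prkcz was lost 8 times and that of Lpl 6 times. Without B6 mice 3 and 5, 0 of the 19 were called, and Grn stood at -0.11 (adjusted p = 0.080), Lpl at 0.21 (adjusted p = 0.094) and Prkcz at -0.09 (adjusted p = 0.17).

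Of 19 transcriptional regulators of Bdnf, 1 was higher and 1 was lower, and without B6 mice 3 and 5 there were 2 higher and 2 lower. Those called with all 10 mice were the E-box factors Usf1 (0.20, adjusted p = 0.00034) and Usf2 (-0.23, adjusted p = 0.00038). Of 16 genes known to respond to BDNF, 0 were higher and 3 were lower, or 18.8%. They were Spry2, an inhibitor of growth factor signalling (-0.31, adjusted p = 0.0066), Homer1, a synaptic scaffold gene (-0.16, adjusted p = 0.011), and Egr3, an activity-induced transcription factor (-0.26, adjusted p = 0.031). The median log2 fold change of the 16 was -0.22, and 93.8% were negative, beside 49.3% of all genes. Without B6 mice 3 and 5 the median was -0.14 and 68.8% were negative, beside 49.6% of all genes, and 3 were lower. The call of Egr3 was lost 3 times with each of the 10 mice left out in turn. The lower striatal projection neuron and oligodendrocyte markers in D2 stood beside this. Without B6 mice 3 and 5, 8 of 10 striatal markers were called lower and 0 of 6 oligodendrocyte markers were called. The part of these markers was not tested.

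Neighbouring genes were examined for changes shared with the members. Of 45 protein-coding genes within 250 kb of a member, 10 were called. Of all genes tested in the same fit, 18.3% were called, and 9.83% were called and lower in D2. The 9 named here were lower in D2 and were Aen and Isg20 near Ntrk3, Abi3, Gngt2, Phb1 and Zfp652 near Ngfr, Sypl2 and Tmem167b near Sort1, and Tbc1d14 near Sorcs2. None of the members near these genes was itself called with all 10 mice and no covariate. In position, Ntrk2 (GRCm39 chr13:58954176-59281784), Ntrk3 (chr7:77825707-78387760), Ngfr (chr11:95459638-95478561), Sort1 (chr3:108191285-108268842), Sorcs2 (chr5:36174509-36555545) and Ntf3 (chr6:126078375-126143873) are on separate chromosomes. Sorcs1 (chr19:50131737-50667093) shares chromosome 19 with Sorcs3. Exons of Bdnf, Ntf3, Ntrk3, Sort1 and Sorcs1 overlap annotated genes on the opposite strand, and since the strand setting of the counting is not given in the sources used here, reads of such partners cannot be told apart from theirs.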

How the data were processed

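A poly-A RNA library of the NAc was made from each mouse (5 B6, 5 D2). Per the methods and the submitters' processing notes, the authors trimmed the reads, used STAR 2.7.10b for alignment to GRCm39, SAMtools 1.6 for sorting and featureCounts for counting. The deposited table holds raw counts per gene, and the lowest median of a row over the 10 libraries is 0.5. Its 3 summary columns (median, average, and number of samples under 1) were not used.

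Counts of all 29883 rows were fitted with edgeR 4.0.16 in R 4.3.3 (quasi-likelihood F test after TMM scaling, strain as the factor), with Benjamini-Hochberg adjustment over all rows and a threshold of 0.05. The SE was taken as |log2 fold change| over √F. Normalized counts are counts divided by the TMM-scaled library size and multiplied by the mean of these sizes. Log2 levels per mouse used a prior count of 2. Single genes were also tested with two-sided exact permutation tests over 252 assignments. The labels give biological replicates, and p-values measure the spread between these mice. Depth lay between 96977262 and 116776714 counts, and precision for low genes such as Ntf3 is limited by counting.

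The members and all lists were chosen with earlier results of these data known. Members are all named. The genes named from the pathway lists are the other ligands and receptors, the called genes of each list with the smallest p (at most 3), the study's reference genes and the called protein-coding genes within 250 kb of a member. Those named beside Bdnf are the 10 most correlated. Some genes under this rule are not reported here. Gene positions and lengths are from GENCODE vM39 (GRCm39), in which 29519 rows were found, and 2 listed genes (Mmp3 and Mmp7) had no row. Promoter windows are from RefSeq (GRCm38.p6), whose coordinates are not those of GRCm39. Fits were tested on simulated data.

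Alternatives were DESeq2 1.42.0, its size factors, total counts, upper quartile, filterByExpr, at least 10 counts in every sample, Slc17a7 as a covariate, mitochondrial genes left out, the replicate number as a block, a threshold of 0.01, exact tests and each mouse left out. Other cortex markers or cholinergic markers as a covariate, B6 mice 3 and 5 left out and the canonical transcript length were added after seeing the data. Python 3.11.15, numpy 2.4.6, scipy 1.17.1, pandas 2.3.3 and matplotlib 3.10.9 were used.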

Additional observations from a re-analysis of the deposited data

Results flagged for a closer look

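In 6 of 60 groups of 5 mice, 1 mouse lay apart from the other 4 by Dixon's test, with a gap of over 0.71 of the range. Chance flags about 1 in 20 groups. Among the members, D2 mouse 4 had 37.6 normalized counts of Ntf3, and the next D2 mouse had 16.6. D2 mouse 1 had 739 counts of Ngfr, and the next D2 mouse had 267. D2 mouse 3 had 50721 counts of Sort1, with the next at 47207, and 7888 counts of Sorcs1, with the next at 7539. Among the pathway genes, B6 mouse 4 was high in Lpl, at 7268 with the next B6 mouse at 5894, and in Egr3, at 14260 with the next at 12274. Bdnf in B6 was not among these groups, since 2 mice stood apart there together.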

How the results depend on the processing

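Sorcs3 was called in every alternative run. With upper-quartile normalization, DESeq2, filterByExpr, at least 10 counts in every sample or mitochondrial genes left out, 2 members were called (Ntrk2 and Sorcs3). With Slc17a7 or with the other cortex markers as a covariate 4 were called, with cholinergic markers 5 (Bdnf, Ntrk2, Ntrk3, Sorcs1 and Sorcs3, beside 22.6% of all genes), and without B6 mice 3 and 5 the number was 3. With each mouse left out the number was 1 to 2, the second being Ntrk2 without B6 mouse 4 and Ngfr without D2 mouse 1. Called pathway genes were 27, and 49 with Slc17a7 (35.0% of 140, beside 26.2% of all genes), 47 with other cortex markers (33.6% beside 26%) and 41 with cholinergic markers (29.3% beside 22.6%) as a covariate, and 21 to 31 with each mouse left out. The cause of these shifts was not tested.

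Directions turned for log2 fold changes that were not called with all 10 mice and no covariate, although Sort1 and Sorcs2 were called with Slc17a7 as a covariate. Bdnf was 0.0075 with total counts, 0.37 in the exact test, 1.04 with cholinergic markers as a covariate (adjusted p = 3.2e-05) and 1.31 without B6 mice 3 and 5, and -0.27 to 0.34 with each mouse left out. Ntf3 was -0.56 to 0.10 with each mouse left out. Ntrk3 was 0.030 with Slc17a7 and 0.013 with other cortex markers, and -0.10 to 0.019 with each mouse left out. Without B6 mice 3 and 5, Sort1 was 0.0022, Sorcs2 0.066 and Sorl1 0.021, and with cholinergic markers Sorcs2 was 0.019. The relation of Bdnf to Slc17a7 kept r between 0.963 and 0.985 with each mouse left out.

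The replicate numbers did not pair the mice. Correlations of deviations between same-numbered B6 and D2 mice were 0.37, -0.41, 0.37, 0.03 and -0.29, and 2 of the 5 B6 mice correlated best with their own number. With the replicate block, Bdnf was 0.35 (adjusted p = 0.72), 1 member was called, and the call of Egr3 was lost at -0.26 (adjusted p = 0.077). With total counts the calls of Egr3 (adjusted p = 0.062) and Prkcz (adjusted p = 0.078) were lost, and with DESeq2 size factors in edgeR that of Prkcz (adjusted p = 0.055). Prkcz was also lost with cholinergic markers as a covariate (adjusted p = 0.060).

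Depth limits what can be said of Ntf3 (12 to 40 raw reads per library) and Ntf5 (at most 7).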

Other observations

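The primers that the study lists for its qRT-PCR reference genes were matched to the GENCODE vM39 transcripts without mismatches. The forward primer listed for Sort1 has the same letters as the one listed for Ppp2r2a, and they are shown here for that reason, 5′ to 3′.

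Sort1 forward, as listed: atctctcacccttgcccttt

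Ppp2r2a forward, as listed: atctctcacccttgcccttt

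Sort1 reverse, as listed: gaaggctgcactcgttcttg

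The shared forward primer matched 13 transcripts of Ppp2r2a and 0 of Sort1, while the listed Sort1 reverse primer matched 15 transcripts of Sort1. The pair listed for Ppp2r2a gave a product of 79 bases on Ppp2r2a transcripts, and the pair listed for Sort1 gave no product on any transcript. The paper reports that each primer set gave a single product on a gel, and its list gives a product length for Sort1. Which forward primer was used at the bench was not tested.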
